A study of Mus musculus with 14 samples.

Results

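The mitochondrial ribosomal protein genes were taken as the rows of the table of unique molecular identifiers (UMIs) whose symbols begin with Mrpl or Mrps and a number, leaving out pseudogene symbols. This gave 70 of 9969 genes. The 14 libraries were made from germinal centre (GC) B cells of popliteal lymph nodes of C57BL/6 mice. SykY317F carries a tyrosine-to-phenylalanine change in Syk, the kinase that acts directly downstream of the B cell antigen receptor. All cells came from chimeras that held 50% SykY317F and 50% WT cells and had received NP-KLH, and lymph nodes were taken 14 days later. The groups were SykY317F light zone (LZ, 3 libraries, replicates 1, 2 and 4), SykY317F dark zone (DZ, 3 libraries, replicates 1, 2 and 4), WT LZ (4 libraries, replicates 1, 2, 3 and 5) and WT DZ (4 libraries, replicates 2 to 5). In a GC the DZ holds the dividing and mutating B cells, and the LZ holds those that test their receptor against antigen and T cells. Nothing in the labels ties a library to 1 mouse, so p-values measure the spread between these libraries, which may be technical. WT and SykY317F cells developed in the same kind of host, so effects of the variant on the host itself are shared by both genotypes.

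The mitochondrial ribosome makes the few proteins encoded by mitochondrial DNA, which are core subunits of the respiratory chain and of the ATP synthase. Its RNAs come from mitochondrial DNA, while every one of its proteins is encoded in the nucleus, made in the cytosol and imported. A large and a small subunit form it, and its proteins fall into those with a counterpart in bacterial ribosomes and those that mitochondria added later. Activated lymphocytes are known to need mitochondrial translation for respiration.

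Of the 70 members, 45 belong to the large subunit and 24 to the small subunit, and 42 have a bacterial counterpart against 27 that have none in their place. The symbols do not always follow the protein. Mrps30 and Mrps18a are named for the small subunit but are proteins of the large one. Mrps36 is a component of the oxoglutarate dehydrogenase complex in the current view and belongs to neither subunit. Mrps18b had no row in the table and was not analysed here. The members lie on 17 chromosomes, and all are protein-coding in the GRCm38 annotation.

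The members are encoded throughout the genome, and the sequence around the start of transcription was compared across them. RefSeq promoters on GRCm38.p6, running from 250 bases before to 50 bases after the start, were found for 61 members. A gene was counted if any of its promoters held the letters, while the share of all promoters counts single promoters, so it is not like for like. The letters CCGGAAG, the core bound by ETS factors such as GABPA, stood on either strand in 22 of the 61 members (36.1%). They stood in 24.6% of the genes tested that had a promoter and in 8.86% of all promoters. The letters ATGGCGG, the core read by YY1, stood in 12 (19.7%), against 11.8% of the genes tested and 4.05% of all promoters. The letters GCATGCG, a half-site of NRF1 that nearly repeats itself on the other strand, stood in 6 (9.84%), against 8.22% and 3.58%. In all, 29 of the 61 members had none of the 3 motifs in any promoter. A match describes letters and does not show that a factor binds.

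The 100 bases before the start are shown for the 5 members with the smallest p in the comparison of LZ with DZ over both genotypes, since the account of single genes turns on them. Capitals mark CCGGAAG or its reverse complement in Mrps26 and Mrpl27, and GCATGCG on both strands, overlapping, in Mrpl9. The first lies on chr13:118387253-118387352 (minus strand), followed by chr4:126046828-126046927, chr2:130563657-130563756, chr3:94443236-94443335 and chr11:94653691-94653790 (all plus strand).
Mrps30: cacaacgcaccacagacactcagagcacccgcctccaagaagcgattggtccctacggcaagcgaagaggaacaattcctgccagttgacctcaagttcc
Mrps15: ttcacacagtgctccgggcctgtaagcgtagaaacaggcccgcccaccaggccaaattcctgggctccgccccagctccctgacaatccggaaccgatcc
Mrps26: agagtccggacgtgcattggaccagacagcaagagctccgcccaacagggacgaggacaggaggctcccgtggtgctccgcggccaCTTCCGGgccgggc
Mrpl9: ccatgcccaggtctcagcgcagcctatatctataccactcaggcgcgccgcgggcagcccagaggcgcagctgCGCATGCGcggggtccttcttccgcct
Mrpl27: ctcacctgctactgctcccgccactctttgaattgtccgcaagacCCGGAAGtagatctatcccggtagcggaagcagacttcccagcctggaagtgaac
The ETS core began 14 bases before the start in Mrps26 and 55 bases before it in Mrpl27. The stretch shown for Mrps30 and for Mrps15 held none of the 3 motifs, and Mrps30, Mrpl9 and Mrpl27 had the YY1 core after the start, outside the stretch shown.

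Members often share a start region with another gene. For 30 of the 70 members (42.9%) a protein-coding gene began on the other strand within 1000 bases, against 19.3% of the tested genes that could be looked up. Several of these neighbours also act in mitochondria. Mrps12 lies beside Sars2, the mitochondrial seryl-tRNA synthetase, Mrpl36 beside Ndufs6 and Mrpl47 beside Ndufb5, both subunits of respiratory complex I, and Mrpl43 beside Twnk, the mitochondrial DNA helicase. Mrpl46 and Mrps11, a protein of each subunit, start back to back, and the 41 bases between their RefSeq starts (chr7:78783090-78783130, plus strand) are shown because the pair shares them. In the GENCODE annotation the 2 genes overlap at their starts instead.
Mrpl46-Mrps11: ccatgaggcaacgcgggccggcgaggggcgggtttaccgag
An exon overlapped another gene in 31 of the 70 members. The sources used here do not give whether counting used strand, so reads of a member and of an overlapping gene on the other strand may not be separable in those members.

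Depth ran from 149641 to 1767898 UMIs per library and was lowest in SykY317F LZ, at 379125, 201881 and 149641 (9.37 to 15.8 UMIs per 100 reads). A count of 3 UMIs made up between 7.91 and 20.05 CPM of those 3 libraries, so weakly expressed members rested on a few UMIs there. CPM, counts per 10 to the power of 6 UMIs, is scaled between libraries by TMM wherever a member's level is given. B cell markers summed to between 51.6 and 89.1 UMIs per 10000 in every library. Germinal centre B cell markers were less even, from 5.70 in SykY317F LZ replicate 2 to 20.8 in WT DZ replicate 4. Over both genotypes 4 of 5 of them lay lower in LZ, with a median log2 fold change of -0.77. In edgeR's quasi-likelihood test 2 of the 5 were lower at an adjusted p under 0.05 (smallest 0.00828), against 0.875% of all genes. At an unadjusted p under 0.05, 4 of the 5 were lower, against 7.95% of all genes. Plasma cell markers summed to between 0.383 in WT LZ replicate 1 and 9.91 in WT DZ replicate 3. Of the labelled zones, the LZ marker Cd83 was higher in LZ than in DZ over both genotypes, by 1.0 ± 0.18 on the log2 scale (SE; edgeR quasi-likelihood test, adjusted p = 0.00843). A second LZ marker, Cd86, differed by 0.97 ± 0.39 (adjusted p = 0.264). The DZ marker Cxcr4 differed by -0.19 ± 0.23 in the same test (adjusted p = 0.762). By genotype, Cxcr4 differed by -0.62 ± 0.30 in WT (adjusted p = 0.588) and by 0.23 ± 0.35 in SykY317F (adjusted p = 0.877). Between SykY317F LZ and WT LZ it differed by 1.31 ± 0.33 (adjusted p = 0.154). Macrophage markers, of which 7 of 7 were detected, summed to 0.290 to 0.936 UMIs per 10000 in SykY317F LZ, 2.56 to 4.87 in SykY317F DZ, 0.4004 to 1.49 in WT LZ and 0.775 to 3.82 in WT DZ. T cell markers, of which 5 of 7 had a row, summed to 0.422 to 1.09 in SykY317F LZ, 0.820 to 1.68 in SykY317F DZ, 0.581 to 1.32 in WT LZ and 0.192 to 0.525 in WT DZ. Between genotypes in DZ, 3 of 3 tested T cell markers were higher in SykY317F at an unadjusted p under 0.05, against 2.83% of all genes (edgeR, smallest adjusted p = 0.769). Their median log2 fold change was 2.61. The part of these cells in the results was not tested.

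The levels of single members spanned a wide range. The libraries tag transcript ends, so CPM here is not divided by transcript length. Mean CPM over the 14 libraries was 386 for Mrpl52, 320 for Mrpl54, 261 for Mrps24, 240 for Mrpl43 and 211 for Mrpl18, the 5 highest. All of these but Mrps24 belong to the large subunit, and Mrpl52, Mrpl54 and Mrpl43 have no bacterial counterpart. Among the members tested, Mrps33 (9.87 CPM), Mrpl50 (8.17 CPM) and Mrpl19 (8.001 CPM) were the lowest. The filter on low counts removed Mrpl1, Mrpl15, Mrpl23, Mrps25 and Mrps36, which had at most 62 UMIs in all 14 libraries together, while no member that was kept had fewer than 70. That left 65 members, of which 42 belong to the large and 23 to the small subunit. Mrps33 reached the level of the filter only in the SykY317F LZ libraries, so the high values of that group decided that it was tested. Where it counts below as higher in that group, the filter had favoured that outcome.

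**Figure D1:**
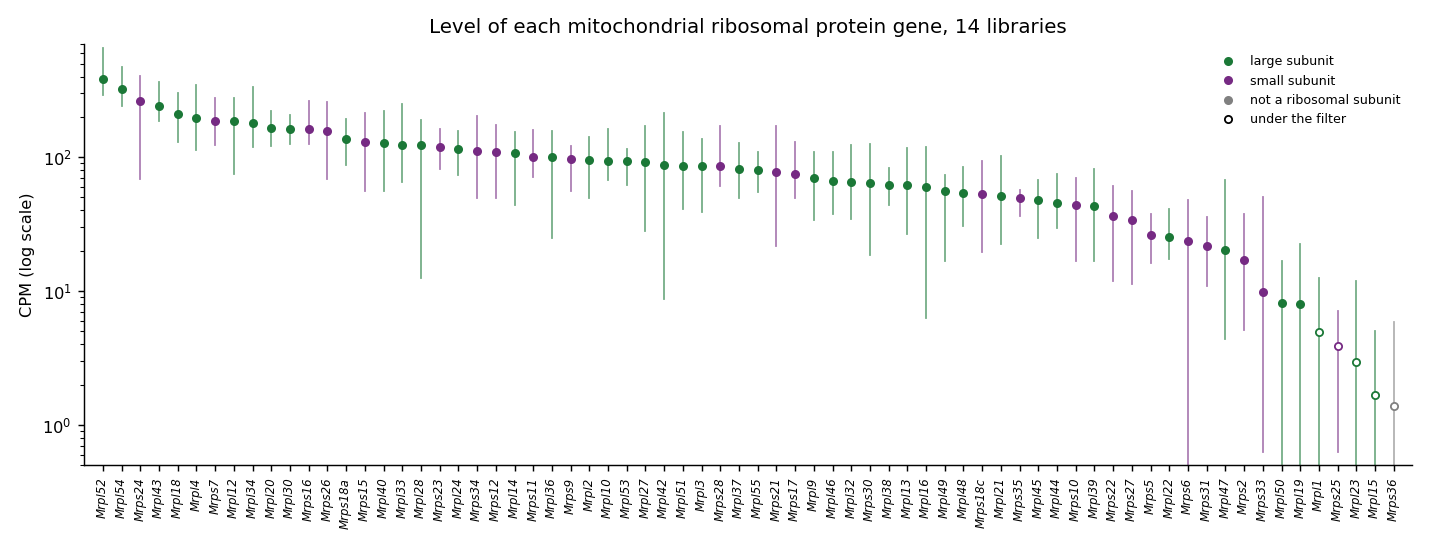
Mean level of each of the 70 members over 14 libraries, in CPM on a log axis, ordered from high to low; lines run from the lowest to the highest library and stop at the axis floor where a library is below it. Filled points are the 65 tested members and open points the 5 under the filter, and Mrpl52, at 386 CPM, is the highest.

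Among the well-known members, Mrpl12, which also binds the mitochondrial RNA polymerase, averaged 187 CPM, and Mrps12, whose bacterial counterpart is the streptomycin-sensitivity protein, 109 CPM. Mrpl45, which anchors the ribosome to the inner membrane, averaged 47.6 CPM. Mrps18a and Mrps18c, paralogs in the large and the small subunit, averaged 136 and 53.1 CPM. These 5 members gave 0 calls in any comparison, where edgeR's test called between 0% and 1.43% of all genes.

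Summed over all members, the mitochondrial ribosomal proteins made up 58.5, 57.0 and 51.7 of every 10000 UMIs in SykY317F LZ replicates 1, 2 and 4. They made up 68.0, 60.5 and 70.7 in SykY317F DZ replicates 1, 2 and 4. The share was 61.7, 59.5, 68.8 and 62.1 in WT LZ replicates 1, 2, 3 and 5, and 69.6, 70.4, 67.3 and 79.3 in WT DZ replicates 2, 3, 4 and 5. The 3 SykY317F LZ libraries were the lowest of all, and every one lay below every library of the other 3 groups. The 95% counting intervals of SykY317F LZ replicate 1 (56.1 to 61.0) and WT LZ replicate 2 (58.1 to 61.0) overlapped. In WT the zones overlapped, because LZ replicate 3 lay above DZ replicate 4, and WT DZ replicate 5 was the highest library. The group means were 55.7 ± 3.56 in SykY317F LZ (SD, n = 3), 66.4 ± 5.29 in SykY317F DZ (n = 3), 63.0 ± 4.03 in WT LZ (n = 4) and 71.7 ± 5.23 in WT DZ (n = 4). In these bulk samples, fewer cells of a type and less RNA per cell cannot be told apart. The SykY317F LZ libraries were also the ones with the fewest UMIs per read, beside SykY317F DZ replicate 4. These sums are scaled by library size alone. With that scaling the median log2 fold change of all genes was -0.16 between genotypes in LZ and -0.18 between SykY317F zones. Relative to it the members stood at -0.01 and -0.06. Between WT zones all genes stood at -0.02 and the members at -0.20 relative to that. In deposited read counts the same sum averaged 62.6 per 10000 in SykY317F LZ, 71.5 in SykY317F DZ, 65.7 in WT LZ and 73.9 in WT DZ, and there the SykY317F LZ libraries (54.7 to 66.7) overlapped the WT LZ libraries (60.7 to 71.2).

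Both subunits followed this order. The large subunit averaged 38.3 per 10000 in SykY317F LZ, 46.0 in SykY317F DZ, 43.8 in WT LZ and 49.9 in WT DZ. The small subunit averaged 17.4, 20.4, 19.2 and 21.8 in the same groups. The ratio of large-subunit to small-subunit UMIs was 2.23 ± 0.29 in SykY317F LZ, 2.26 ± 0.05 in SykY317F DZ, 2.28 ± 0.08 in WT LZ and 2.29 ± 0.08 in WT DZ (SD). Its library values overlapped between all groups. Subunits of the respiratory chain and ATP synthase were also summed, complexes that all hold products of mitochondrial translation except succinate dehydrogenase. They made up 208 ± 20.6 per 10000 in SykY317F LZ, 242 ± 13.4 in SykY317F DZ, 221 ± 13.2 in WT LZ and 277 ± 17.3 in WT DZ (SD). For these subunits the LZ and DZ libraries did not overlap in WT or in SykY317F.

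**Figure D2:**
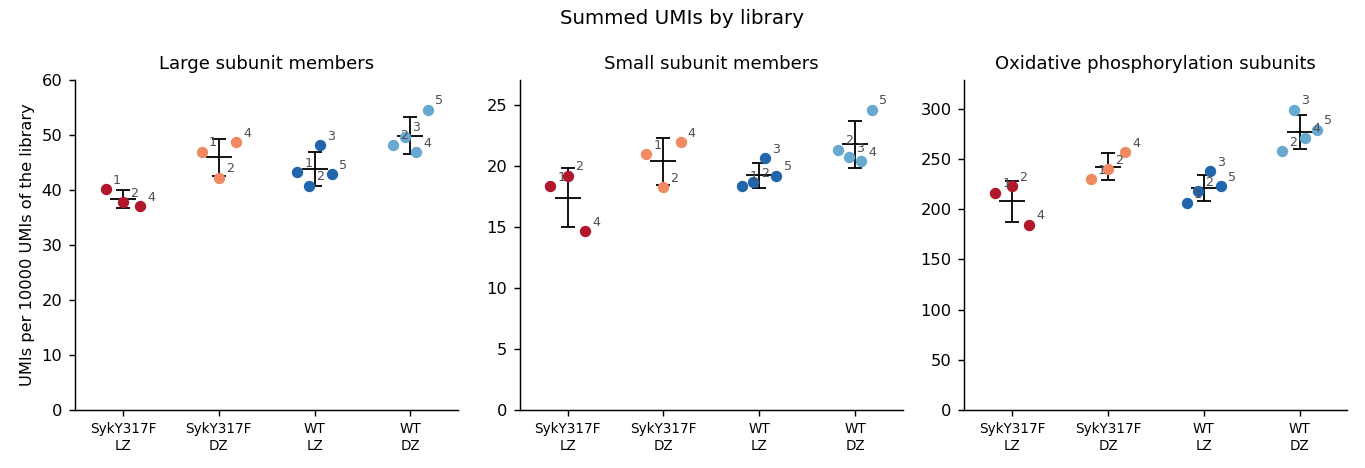
UMIs per 10000 UMIs of the library for the large-subunit members, the small-subunit members and the oxidative phosphorylation subunits; points are libraries numbered by replicate, and lines give the mean and SD of each group. The group means of the members together are 55.7 in SykY317F LZ, 66.4 in SykY317F DZ, 63.0 in WT LZ and 71.7 in WT DZ.

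Across LZ and DZ of both genotypes, 1 of 65 members changed in edgeR's quasi-likelihood test (Benjamini-Hochberg adjusted p under 0.05 over 7999 genes). Of all genes tested, 1.43% passed in either direction and 0.875% were lower in LZ. The member was Mrps30, which was also the 1 member called by DESeq2's Wald test, where 2.94% of all genes passed. At an unadjusted p under 0.05, 9 members were lower, Mrps30 among them, which is 13.8% of members against 7.95% of all genes. At that level 1 was higher (1.54%, against 6.35% of all genes), Mrps33, which the filter kept only through SykY317F LZ. In 0 members were all 7 LZ libraries below or all above the 7 DZ libraries, where 0.325% and 0.263% of all genes were. The median log2 fold change of the members was -0.14, against -0.03 for all genes tested, and 45 of 65 lay on the lower side (69.2%, against 53.8% of all genes). The median was -0.08 without SykY317F LZ replicate 4 (all genes -0.05) and -0.09 without WT DZ replicate 5 (all genes -0.02). Without both libraries with the fewest UMIs, SykY317F LZ replicates 2 and 4, it was -0.07, against -0.06 for all genes, with 40 of 67 lower. The large subunit had 29 of 42 lower and a median of -0.13, and the small subunit 16 of 23 lower and a median of -0.16. Members with a bacterial counterpart had a median of -0.13 and the others one of -0.16, so neither division separated the members in this comparison.

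Mrps30 (chromosome 13, 118378381 to 118387252, minus strand, GRCm38) encodes a large-subunit protein with no bacterial counterpart. It stood at 20.7, 39.2 and 18.7 CPM in SykY317F LZ, from 7, 7 and 3 UMIs. It stood at 73.5, 67.5 and 76.9 CPM in SykY317F DZ. The WT LZ libraries held 54.5, 65.8, 62.9 and 74.5 CPM, and the WT DZ libraries 51.5, 89.6, 81.3 and 125 CPM. The SykY317F LZ libraries lay below all others, and in WT the zones overlapped. Over both genotypes the log2 fold change of LZ over DZ was -0.96 ± 0.24 (SE, edgeR adjusted p = 0.0461). The 2 genotypes contributed -1.49 ± 0.40 in SykY317F (adjusted p = 0.178) and -0.44 ± 0.26 in WT (adjusted p = 0.680), and the difference between them was -1.06 ± 0.48 (adjusted p = 0.999). Between genotypes in LZ it differed by -1.33 ± 0.39 (adjusted p = 0.256). The call was lost without 11 of the 14 libraries taken singly, including SykY317F LZ replicate 1 (adjusted p = 0.137), and held without SykY317F LZ replicate 2, WT LZ replicate 5 or WT DZ replicate 2. It was also lost with a replicate block (adjusted p = 0.0851), with read counts (0.176) and with each library's GC trend removed (0.120). Over 23 alternatives it passed in 8, and the log2 fold change of Mrps30 stayed between -1.16 and -0.73. Mrps30 overlaps B430218F22Rik on the other strand, so part of its count may belong to that gene.

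The members next to Mrps30 in this comparison did not pass. Mrps15, a small-subunit protein that binds ribosomal RNA in bacteria, stood at 100.8, 56.0 and 87.2 CPM in SykY317F LZ and 146, 128 and 129 CPM in SykY317F DZ. In WT it stood at 109, 145, 145 and 129 CPM in LZ and at 146, 142, 140 and 215 CPM in DZ. The SykY317F zones did not overlap and the WT zones did, and the difference over both genotypes was -0.49 ± 0.18 (adjusted p = 0.191). Mrps26, a small-subunit protein with no bacterial counterpart, stood at 136, 140 and 68.5 CPM in SykY317F LZ and 191, 134 and 189 CPM in SykY317F DZ. In WT it stood at 153, 123, 135 and 149 CPM in LZ and at 179, 176, 158 and 256 CPM in DZ. Here the WT zones were the ones that did not overlap, and the difference over both genotypes was -0.50 ± 0.18 (adjusted p = 0.198).

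Mrpl9, a large-subunit protein with a bacterial counterpart, stood at 41.5, 33.6 and 56.1 CPM in SykY317F LZ, below every WT LZ library (62.1 to 78.2 CPM). Its SykY317F DZ libraries held 88.0, 80.8 and 54.9 CPM and its WT DZ libraries 69.5, 99.3, 110 and 66.1 CPM, so zones overlapped in both genotypes, and the difference over both genotypes was -0.57 ± 0.21 (adjusted p = 0.198). Mrpl27, a large-subunit protein close to the site of peptide bond formation in bacterial ribosomes, stood at 97.8, 28.02 and 74.8 CPM in SykY317F LZ and 115, 72.8 and 140.0 CPM in SykY317F DZ. In WT it stood at 95.9, 54.0, 68.6 and 74.0 CPM in LZ and at 94.0, 99.3, 109 and 171 CPM in DZ. Its difference over both genotypes was -0.66 ± 0.24 (adjusted p = 0.200), and in WT alone -0.70 ± 0.30 (adjusted p = 0.502). On the higher side Mrps33, Mrps21 and Mrps34 had the smallest p in edgeR's test, and none passed. Their mean CPM was 14.7 ± 17.2, 89.1 ± 39.7 and 118 ± 49.0 over the 7 LZ libraries (SD). Over the 7 DZ libraries it was 5.02 ± 2.44, 65.2 ± 35.4 and 103 ± 23.9.

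**Figure D3:**
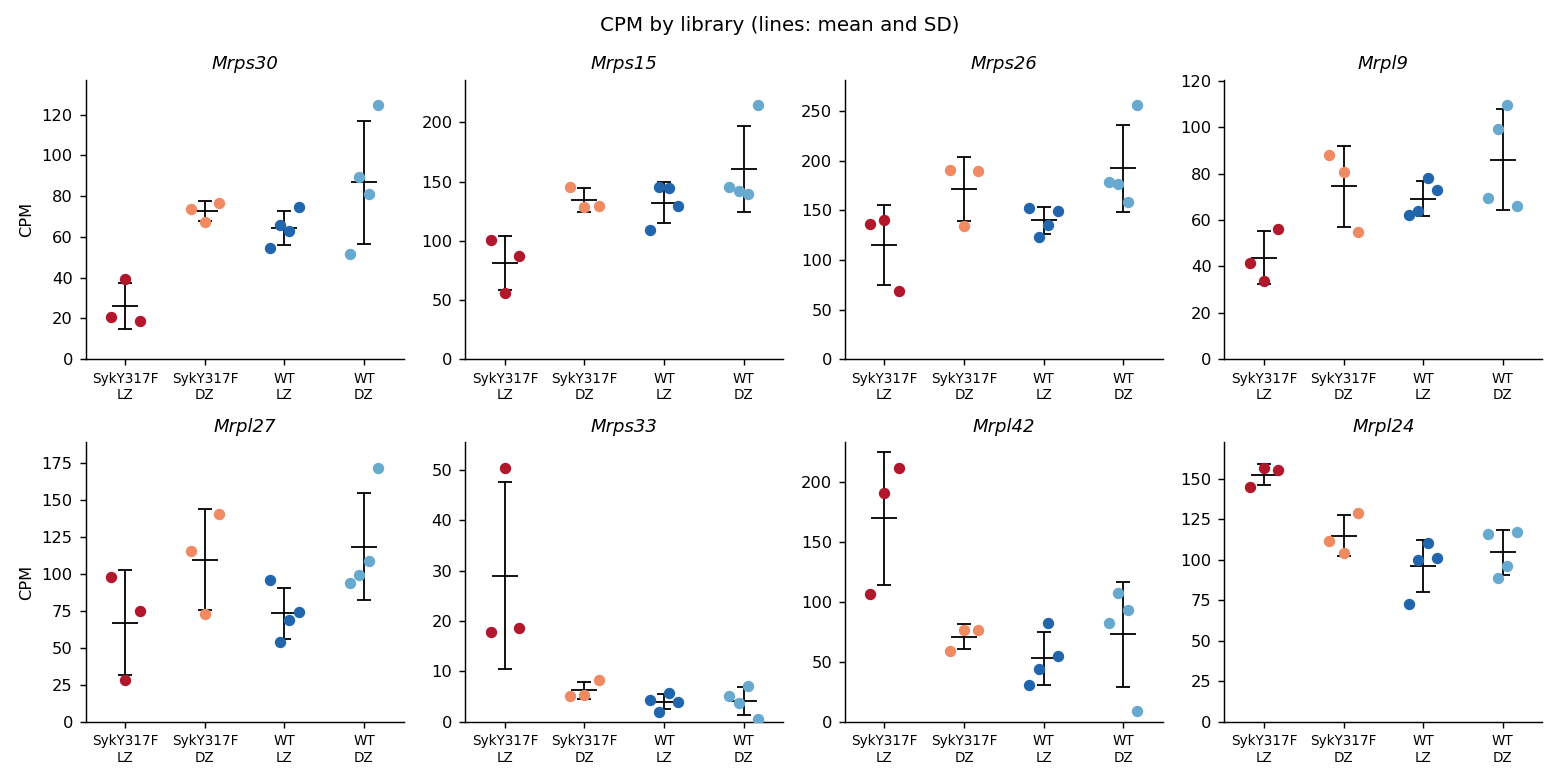
CPM of 8 members by library, with the mean and SD of each group; each panel has its own axis from 0. Mrps30 is lowest in the 3 SykY317F LZ libraries (18.7 to 39.2 CPM), where Mrps33, Mrpl42 and Mrpl24 are at or near their highest.

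Within SykY317F, 0 of 65 members changed between LZ and DZ in edgeR's test, where 0.0375% of all genes did. In DESeq2's Wald test 0 members and 0.525% of all genes did. At an unadjusted p under 0.05, 1 member was higher (4.04% of all genes were) and 4 were lower (6.15%, against 6.23% of all genes). The median log2 fold change was -0.11, against -0.04 for all genes, with 41 of 65 on the lower side (63.1%, against 53.3% of all genes). Leaving out SykY317F LZ replicate 1 moved the median to -0.22. It was -0.07 when SykY317F LZ replicate 4 was left out, and -0.03 when DZ replicate 4 of that genotype was. Without LZ replicates 2 and 4 together it was 0.07, against -0.10 for all genes. In 6 members (Mrpl46, Mrps9, Mrps15, Mrps23, Mrps30 and Mrps31, singled out after their values were seen) every LZ library lay below every DZ library. This is 9.23% of members, against 8.51% of all genes. In 3 (Mrpl24, Mrpl42 and Mrps33) every LZ library lay above, against 6.56% of all genes. Both shares are near or under the background. Mrps33, which the filter kept only through SykY317F LZ, is 1 of these 3 and the 1 member higher at an unadjusted p under 0.05.

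Within WT, 0 of 65 members changed between LZ and DZ in edgeR's test, where 0.188% of all genes did, and 0 in DESeq2's, where 1.21% did. Without adjustment, 0 members were higher at p under 0.05 (4.59% of all genes were) and 5 were lower (7.69%, against 3.91% of all genes). These 5 all have a bacterial counterpart, as 39 of the 65 tested members do. Most members nevertheless stood slightly lower in LZ, 47 of 65 (72.3%, against 51.7% of all genes), with a median log2 fold change of -0.23 against -0.02 for all genes. Without WT DZ replicate 5 the median was -0.05, against 0.03 for all genes, with 38 of 64 members lower. Mrps18c, the small-subunit paralog of its family, had the smallest p, at -0.87 ± 0.31 (adjusted p = 0.375). It stood at 19.6, 39.3, 51.5 and 45.9 CPM in WT LZ and 66.9, 93.3, 84.0 and 39.9 CPM in WT DZ, so DZ replicate 5 lay within the LZ range. Its large-subunit paralog Mrps18a differed by 0.08 ± 0.24 in WT (adjusted p = 0.963). Mrpl32, whose processing by a mitochondrial protease is a step of ribosome assembly, differed by -0.65 ± 0.28 (adjusted p = 0.507). On the higher side Mrpl44, a large-subunit protein with a ribonuclease III-like fold, differed by 0.43 ± 0.26 (adjusted p = 0.702), Mrpl14 by 0.22 ± 0.27 and Mrps21 by 0.36 ± 0.49. Without WT LZ replicate 2, Mrps21 differed by -0.16. In 2 members (Mrpl20 and Mrps26) every WT LZ library lay below every WT DZ library, which is 3.08% against 2.88% of all genes. In 0 members did every one lie above, against 2.89% of all genes.

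**Figure D4:**
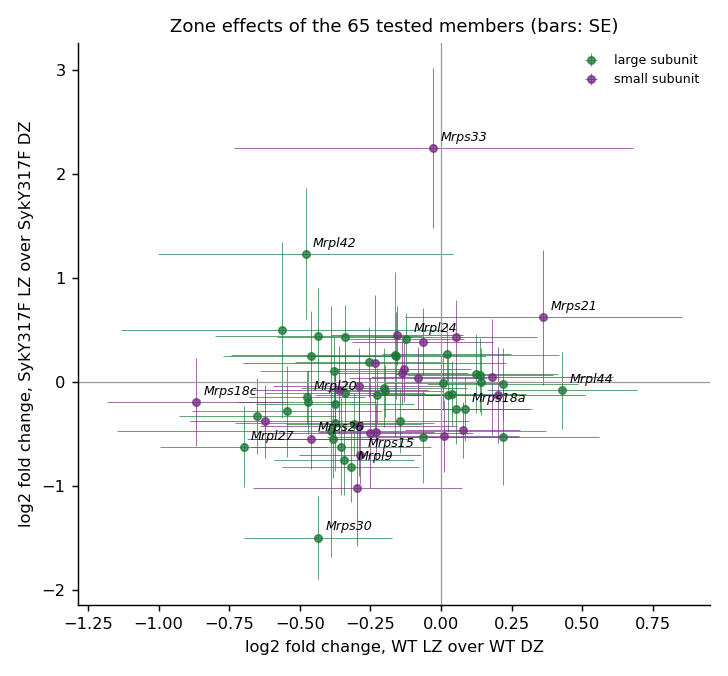
Log2 fold change of LZ over DZ for the 65 tested members, in SykY317F (vertical axis) against WT (horizontal axis), with bars of 1 SE and a colour for each subunit. Most points lie left of 0, with 47 of 65 lower in WT and 41 of 65 lower in SykY317F, where 51.7% and 53.3% of all genes are lower. Mrps30 is the lowest and Mrps33 the highest in SykY317F.

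Whether the zone effect differed between the genotypes was tested directly. Of 65 members 0 differed in edgeR's test and 0 in DESeq2's, and each called 0% of all genes. At an unadjusted p under 0.05, 1 member had the higher effect in SykY317F (Mrps33, 2.28 ± 1.04) and 1 the lower (Mrps30), where 1.63% and 3.18% of all genes did. The filter kept Mrps33 only through SykY317F LZ. Mrpl42 differed by 1.71 ± 0.82 and Mrpl55, a large-subunit protein, by 0.78 ± 0.39 (adjusted p = 0.999 for each). Beside Mrps30, Mrps9 and Mrpl16 had the smallest p on the lower side. Mrpl16 averaged 40.7 CPM in SykY317F LZ, 64.6 in SykY317F DZ, 71.5 in WT LZ and 59.9 in WT DZ. The median difference was 0.10, against -0.05 for all genes, and became -0.11, as for all genes, without WT DZ replicate 5. It had no steady sign, at -0.06 when SykY317F LZ replicate 1 was left out and 0.17 when SykY317F DZ replicate 4 was. It lay between 0.00 and 0.05 when SykY317F LZ replicate 2, SykY317F DZ replicate 2, WT LZ replicate 5 or WT DZ replicate 3 was left out. Members with a bacterial counterpart had a median difference of 0.25, with 24 of 39 higher, and the others one of -0.11, with 10 of 26 higher. These medians were not tested against each other.

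Between SykY317F LZ and WT LZ, 0 of 65 members changed in edgeR's test, which called 0% of all genes, and 0 in DESeq2's, which called 0.538%. Without adjustment, 4 members were higher at p under 0.05 (6.15%, against 3.64% of all genes) and 3 were lower (4.62%, against 6.21%). The median was -0.07 against -0.06 for all genes. This median reached 0.02 and -0.18 over the alternatives, so it had no steady sign. It was -0.15 when SykY317F LZ replicate 1 was left out, -0.17 when replicate 2 was and 0.00 when replicate 4 was. Leaving out WT LZ replicate 1 or 3 gave -0.01 each, and leaving out WT LZ replicate 5 gave -0.10. In 3 members every SykY317F LZ library lay above every WT LZ library (4.62%, against 3.83% of all genes), and in 4 (Mrpl9, Mrps9, Mrps15 and Mrps30) every one lay below (6.15%, against 6.69%). Mrps33, which the filter kept only through SykY317F LZ, is in both counts of higher members.

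The 3 higher ones were Mrps33, Mrpl42 and Mrpl24. Mrps33, a small protein of the small subunit with no bacterial counterpart, gave 6, 9 and 3 UMIs in the SykY317F LZ libraries and 7, 8 and 3 in those of SykY317F DZ, and 4, 2, 3 and 7 in WT LZ and 4, 5, 8 and 1 in WT DZ. Scaled to library size, the SykY317F LZ libraries reached 17.8, 50.4 and 18.7 CPM, against at most 8.24 CPM in any other library. The log2 fold change between genotypes in LZ was 2.82 ± 0.73 (adjusted p = 0.156). In the authors' deposited table Mrps33 was the member with an adjusted p under 0.05 in this comparison (log2 fold change 2.89, adjusted p = 0.0410), where 0.251% of all genes passed. The value rests on 18 UMIs in SykY317F LZ and 16 in WT LZ. Since the filter kept Mrps33 only through SykY317F LZ, its higher level there is not independent of how it came to be tested.

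Mrpl42, a large-subunit protein, stood at 107, 191 and 212 CPM in SykY317F LZ and 59.1, 76.8 and 76.9 CPM in SykY317F DZ. In WT it stood at 30.5, 44.2, 82.0 and 54.5 CPM in LZ and at 82.4, 107, 92.8 and 8.73 CPM in DZ. SykY317F LZ was the highest group but its lowest library lay just under the highest of WT DZ, and the difference between genotypes in LZ was 1.68 ± 0.59 (adjusted p = 0.376). Mrpl24, a large-subunit protein with a role in early assembly in bacteria, stood at 145, 157 and 156 CPM in SykY317F LZ, above all 11 other libraries. It stood at 112, 104 and 129 CPM in SykY317F DZ, 73.0, 100.2, 111 and 100.9 CPM in WT LZ, and 116, 88.9, 96.3 and 117 CPM in WT DZ. Between genotypes in LZ it differed by 0.66 ± 0.24 (adjusted p = 0.353), and over both zones by 0.40 ± 0.16 (adjusted p = 0.403).

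Between SykY317F DZ and WT DZ, 0 of 65 members changed in edgeR's test, which called 0% of all genes, and 0 in DESeq2's, which called 0.025%. At an unadjusted p under 0.05, 0 members were higher (2.83% of all genes were) and 1 was lower (1.54%, against 1% of all genes). Groups did not overlap in 0 members, against 2.34% of all genes on the lower and 3.56% on the higher side. The lower member was Mrpl55, at 59.8, 54.8 and 82.4 CPM in SykY317F DZ and 104, 82.97, 81.3 and 110 CPM in WT DZ. It differed by -0.56 ± 0.26 (adjusted p = 0.99997), and the groups overlapped. Mrps11, the partner of Mrpl46 at the shared start region, differed by -0.50 ± 0.26 and Mrpl34 by -0.41 ± 0.29, and Mrps6, Mrpl51 and Mrpl38 had the smallest p on the higher side, with differences of 0.59 ± 0.46, 0.33 ± 0.31 and 0.23 ± 0.27. Of the 65 members 49 lay on the lower side (75.4%, against 55.1% of all genes), with a median of -0.16 against -0.04 for all genes. Without WT DZ replicate 5 the median was 0.00, against 0.01 for all genes, with 32 of 64 members lower. Without SykY317F DZ replicate 2 the median was -0.04.

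Over both zones, 0 of 65 members changed with genotype in edgeR's test, which called 0% of all genes, and 0 in DESeq2's, which called 0.588%. Without adjustment, at p under 0.05, 2 were higher (Mrps33 and Mrpl24, 3.08% against 3.94% of all genes) and 3 were lower (Mrps30, Mrps15 and Mrps9, 4.62% against 6.1%). Of these, Mrps33 was kept by the filter only through SykY317F LZ. With read counts Mrps15 stood at 0.03 instead of -0.46, and between genotypes in LZ at 0.02 instead of -0.67. Mrps9, a small-subunit protein, differed by -0.36 ± 0.17 (adjusted p = 0.490). The median was -0.13 against -0.05 for all genes, with 45 of 65 lower (69.2%, against 55.4% of all genes). Without WT DZ replicate 5 it was -0.03, against -0.02 for all genes. It was -0.07 without SykY317F LZ replicate 4 or SykY317F DZ replicate 2 and -0.06 without WT LZ replicate 1.

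The pair Mrpl46 and Mrps11, with its shared start region, gave 0 calls in any comparison, where edgeR's test called between 0% and 1.43% of all genes. Mrpl46 averaged 46.2 ± 9.54 CPM in SykY317F LZ, 81.9 ± 25.4 in SykY317F DZ, 60.1 ± 3.27 in WT LZ and 75.9 ± 18.2 in WT DZ (SD). Mrps11 averaged 86.7 ± 22.4 CPM in SykY317F LZ, 82.6 ± 10.8 in SykY317F DZ, 108 ± 18.2 in WT LZ and 118 ± 30.7 in WT DZ. Over both genotypes, LZ over DZ was -0.54 ± 0.21 for Mrpl46 (adjusted p = 0.225) and -0.02 ± 0.19 for Mrps11 (adjusted p = 0.981). In WT alone it was -0.34 ± 0.25 for Mrpl46 and -0.14 ± 0.23 for Mrps11. The difference between these 2 genes was not tested, and the exons of the 2 genes overlap.

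The rest of the mitochondrial translation pathway gave 0 calls in all 7 comparisons in edgeR's test, which called between 0% and 1.43% of all genes. Over both genotypes, LZ against DZ, 0 of 8 translation factors passed at an unadjusted p under 0.05, where 7.95% of all genes were lower and 6.35% higher. They included Tufm, the elongation factor that brings aminoacyl-tRNA (0.43 ± 0.22, adjusted p = 0.378), and Pdf, the deformylase of nascent chains (-0.41 ± 0.21, adjusted p = 0.385). Of 16 mitochondrial tRNA synthetases and related enzymes 1 was lower at that level, Qrsl1, a subunit of the amidotransferase that makes glutaminyl-tRNA (-0.61 ± 0.23, adjusted p = 0.201). Of 20 assembly and ribosomal RNA modification factors 16 lay on the lower side (80%, against 53.8% of all genes) with a median of -0.19. At an unadjusted p under 0.05, 1 was lower, the 2′-O-methyltransferase Rnmtl1 (-0.80 ± 0.36). Of 15 transcription and RNA processing factors 2 were lower at that level, among them Trmt10c, a subunit of mitochondrial ribonuclease P (-1.49 ± 0.53, adjusted p = 0.178).

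The oxidative phosphorylation subunits had 59 of 74 on the lower side in LZ over both genotypes (79.7%, against 53.8% of all genes), with a median of -0.21. At an unadjusted p under 0.05, 13 of 74 were lower (7.95% of all genes were) and 0 higher (6.35% of all genes were). Cox6a1, of cytochrome c oxidase (-0.65 ± 0.18, adjusted p = 0.0715), and Sdhb, of succinate dehydrogenase (-0.54 ± 0.15, adjusted p = 0.0737), had the smallest p. In SykY317F 45 of 74 lay on the lower side (60.8%, against 53.3% of all genes) with a median of -0.10, and in WT 67 of 74 (90.5%, against 51.7%) with a median of -0.29. The cytosolic ribosomal proteins had 60 of 75 on the higher side over both genotypes, a median of 0.18 and 1 gene called, lower in LZ. In SykY317F 64 of 75 lay on the higher side with a median of 0.35, and in WT 37 of 75 with a median of -0.01. The mitochondrial ribosomal proteins, at 45 of 65 lower and a median of -0.14, lay between these lists over both genotypes. These counts describe the lists and were not tested against each other.

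Transcript base composition moved with the members in single libraries. The members' transcripts had a median GC content of 51.3% (42.2% to 60.6%), near the 50.7% of all genes tested. With each gene expressed as its deviation from its own mean, the 32 members below the median GC minus the 33 others ranged from -0.36 in WT LZ replicate 1 and -0.35 in WT DZ replicate 5 to 0.34 in WT DZ replicate 4 and 0.33 in SykY317F LZ replicate 4, on the log2 scale. The same value over all genes tested ranged from -0.59 to 0.59, and over the 14 libraries the 2 values had a Pearson r of 0.83, which is given as a description, since the members are among all genes tested and both values come from the same libraries. Within each group libraries of both signs occurred. With each library's trend with GC removed, 0 members were called in LZ against DZ over both genotypes (Mrps30, -0.87, adjusted p = 0.120). The part of base composition in the members' other values was not tested.

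**Figure D5:**
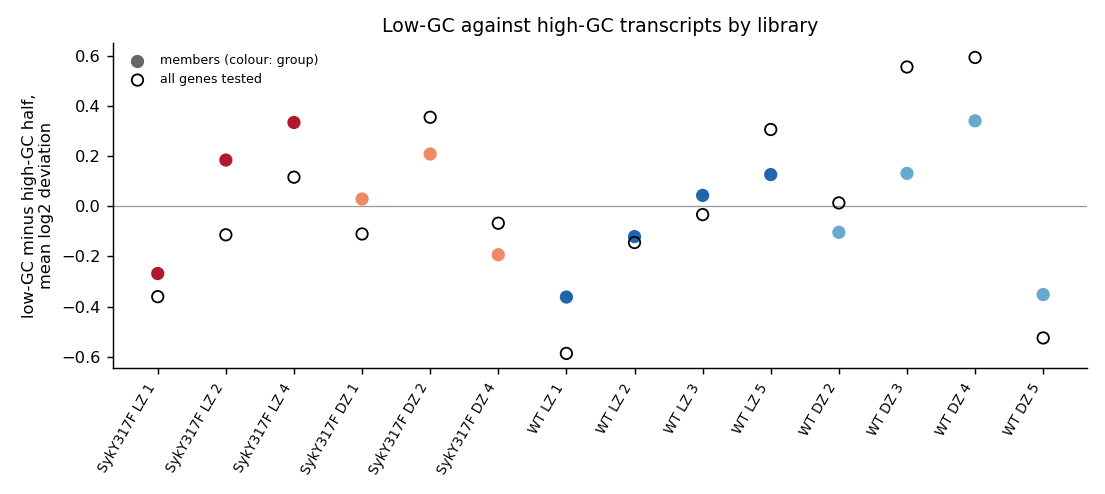
Mean log2 deviation of the members below the median GC content minus that of the others in each library, filled points coloured by group, and the same for all genes tested, open points. The members range from -0.36 in WT LZ replicate 1 to 0.34 in WT DZ replicate 4, and every group holds libraries above and below 0.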

How the data were processed

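Per the labels' protocols, polyadenylated RNA of sorted cells went into libraries of a MARS-seq type, in which UMIs tag transcript ends. Build mm10 and the tools STAR 2.4.2a, cutadapt, HTSeq, DESeq and DESeq2 appear in the submitters' processing notes without roles, and the strand setting of counting is not given there. The deposited values are UMI counts, read counts, normalised values (a signal, the counts divided by a size factor, which was not used), log2 fold changes and p-values. The authors' log2 fold changes and adjusted p-values were used only where named.

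UMI counts were filtered with filterByExpr (7999 genes, 99.3% of UMIs). After TMM scaling, edgeR 4.0.16 (R 4.3.3) fitted a robust quasi-likelihood model of the 4 groups (common biological coefficient of variation 32.3%). The Benjamini-Hochberg adjustment ran over all genes tested, at a threshold of 0.05. Sums per 10000 UMIs use all 70 members. Named members are those called, the 3 with the smallest p in each direction of each comparison, the 5 highest and the 3 lowest tested by mean CPM, and Mrps18a, Mrps18c, Mrpl12, Mrps12 and Mrpl45. Members whose groups did not overlap were also named, and were chosen after their values were seen, as was the pair Mrpl46 and Mrps11. The members, lists and this rule were chosen with earlier results of these data known. Alternatives were DESeq2 size factors, library size alone, no filter, a filter of 20 UMIs in 3 libraries, DESeq2 1.42.0's Wald test, a replicate block, a fit of both groups alone, read counts and leaving out each library; removal of each library's GC trend and a fit without SykY317F LZ replicates 2 and 4, the shallowest libraries, were added after seeing the data. Positions are those of GENCODE M21 (GRCm38) and promoters those of RefSeq (GRCm38.p6). The steps were tested on simulated counts.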

Additional observations from a re-analysis of the deposited data

Results flagged for a closer look

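In 4 of the 74 groups of 4 WT libraries examined, 1 library stood apart from the other 3, and chance alone gives about 5% of such groups. The groups covered single members, the summed shares of members and the low-GC minus high-GC value. All 4 were high values of single members in WT DZ replicate 5. Mrpl32 stood at 122 CPM there, against 63.7 to 68.2 CPM in the other WT DZ libraries. Mrpl43 stood at 365 CPM, against 223.6 to 238.5 CPM. Mrps15 stood at 215 CPM, against 139.6 to 145.5 CPM. Mrps9 stood at 114 CPM, against 99.0 to 101.5 CPM. The same library had the highest summed share of members, at 79.3 per 10000 UMIs, and one of the lowest low-GC minus high-GC values, at -0.35. The transcript GC content was 42.2% for Mrpl32, 51.4% for Mrpl43, 54.0% for Mrps15 and 49.7% for Mrps9. The part of base composition in these values was not tested.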

How the results depend on the processing

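The call of Mrps30 in LZ against DZ over both genotypes was lost with a replicate block (0 members called, adjusted p = 0.0851), with read counts (0, adjusted p = 0.176), with the GC trend of each library removed (0, adjusted p = 0.120), without the pair of shallowest libraries, SykY317F LZ replicates 2 and 4 (0, adjusted p = 0.144), and without 11 of 14 single libraries (0 to 1 members called). Its direction was the same in all 23 alternatives and it passed in 8, with adjusted p from 0.0200 to 0.176. In the other 6 comparisons 0 members were called under every alternative run. There edgeR's main fit called at most 0.188% of all genes and DESeq2's Wald test at most 1.21%. The members' median in SykY317F zones was 0.066 without that pair. Without WT DZ replicate 5 it was -0.047 for WT zones (-0.26 to -0.047 over all libraries left out singly) and -0.11 for the difference of zone effects (-0.11 to 0.17). The summed share of SykY317F LZ was 62.6 per 10000 in read counts. Mrps21 in WT zones was -0.16 without WT LZ replicate 2 (-0.16 to 0.80 over single libraries left out), and with read counts Mrps15 was 0.023 between genotypes in LZ and 0.025 over both zones. The cause was not tested. Scaling by library size alone moved the median of all genes in SykY317F zones to -0.18; relative to it the members stood at -0.06, against -0.07 with TMM. The replicate numbers were not shown to mark shared mice: 8 of 14 same-numbered pairs had a correlation of deviations above 0.1 (-0.56 to 0.31), against 17 of 59 other pairs. The block changed no other call among the members. Over all genes, it moved the calls in LZ against DZ over both genotypes from 114 to 94. SykY317F LZ had the fewest UMIs, and the CPM of 3 UMIs given for its libraries covers counting error only.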

Other observations

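The deposited read table held 5 further members with no row in the UMI table, Mrpl11, Mrpl35, Mrpl41, Mrpl57 and Mrps14. They had 26, 28, 35, 21 and 72 reads over the 14 libraries. Mrpl11, a large-subunit protein with a bacterial counterpart, had 0, 0 and 0 reads in SykY317F LZ, 3, 12 and 0 in SykY317F DZ, 1, 0, 0 and 0 in WT LZ and 0, 3, 5 and 2 in WT DZ. Each of the other 4 was counted in some libraries of each zone. Reads keep PCR copies, and differences of these 5 genes between groups were not tested.

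Members also differed in how much they varied between libraries. The SD of log2 CPM over the 14 libraries was 0.19 for Mrps35, 0.22 for Mrpl30 and 0.24 for Mrpl54, and 1.06 for Mrps33, 1.07 for Mrpl42 and 1.07 for Mrps6. In all libraries together these members had 649, 2114 and 4214 UMIs, and 70, 868 and 304 UMIs, in the same order. This SD includes counting error and differences between groups, and their part was not tested. The values of Mrpl42 ran from 8.73 CPM in WT DZ replicate 5 to 212 CPM in SykY317F LZ replicate 4. Across the 65 tested members this SD and transcript GC content had a Pearson r of -0.30, given as a description over genes, which are not independent replicates.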
